A study of Homo sapiens with 6 samples.

Results

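Amino acid transporters were taken from the deposited tables by symbol, as the numbered genes of the families SLC1, SLC3, SLC6, SLC7, SLC36, SLC38 and SLC43. This gave 58 genes of 56638 gene rows, after leaving out 1 SLC7 symbol that the selection rule excludes. The libraries were 3 controls and 3 TGFB1 libraries of total RNA from cells labelled SW480, a colorectal adenocarcinoma line established from 1 donor, grown in RPMI-1640 medium with fetal bovine serum. TGFB1 cells had received TGF-β1 at 10 ng/ml repeatedly, control cells received none, and every library is labelled as passages 16 to 19. Total counts in genes ran from 13012898 to 16005222 per library. Whether libraries of a group are separate cultures is not stated, and p-values therefore reflect only the spread among these libraries, which may be technical.

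Cells take up and exchange amino acids through carriers that differ in substrate, ion coupling and location. Light chains of the SLC7 family, such as LAT1, reach the plasma membrane only when bound to an SLC3 heavy chain and swap an amino acid inside for another outside. Sodium-coupled carriers of the SLC1, SLC6 and SLC38 families build up the inner pool that these exchangers spend, and members of SLC36 and SLC38 on the lysosome pass amino acids and the signal of their presence to mTORC1. In colorectal tumours the glutamine and leucine carriers are known for their high expression.

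Levels are CPM, read counts scaled to the TMM-adjusted library total, given as mean ± SD over the 3 libraries of a group. Fold changes on the log2 scale are given as TGFB1 minus control, ± SE, with p-values from edgeR's quasi-likelihood test, Benjamini-Hochberg adjusted over all 14897 tested genes, and a gene is called at an edgeR adjusted p under 0.05. Of 8 listed TGF-β response genes 8 were called higher, against 23.4% of all tested genes. That list was written with earlier results of these data known, so it is no independent check of the response. Of 12 listed colorectal epithelial markers 8 stayed under 1 CPM in both groups, among them CDX2 and GPA33 with 0 counts. The other 4 were tested. KRT8 stood at 1711 and 1678 CPM in control and TGFB1 and did not pass. KRT18 (183.5 and 124.9 CPM) and EPCAM (6.94 and 4.06 CPM) were called lower. LGR5 (13 and 46 counts) was called higher, but 0 control libraries were over the count filter, so its direction was partly set by it. Of 10 fibroblast markers 5 were tested and called higher, the sum of the list going from 90.98 to 95.03 CPM in control libraries to 120 to 136 CPM in TGFB1 libraries. These were COL1A1 (81.3 and 105 CPM in control and TGFB1), PDGFRB (7.99 and 14.8 CPM), DCN (3.38 and 7.54 CPM), THY1 (23 and 52 counts) and FAP (1 and 51 counts). FAP and THY1 entered the test through the TGFB1 libraries, with 0 and 1 control libraries over the count filter, so their direction was partly set by it. The other 5 were near 0, with 0 control counts and 1 to 3 TGFB1 counts for PDGFRA, COL1A2 and COL3A1, 9 and 3 counts for LUM and 1 and 0 for POSTN. Of 8 leukocyte markers 1 was tested and did not pass, and PTPRC had 0 counts. The part of these other-cell markers in the results below was not tested.

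Amino acid transporter expression rested on a few genes, and TGF-β1 was followed by rises in some carriers and falls in others. Of the 58 genes 30 had enough counts to be tested, 20 had some counts but too few, and 8 had no count in any library. Of the 30 tested, 11 were called higher in TGFB1 libraries, 10 were called lower and 9 did not pass. The share called among all tested genes was 47.3%, with 23.4% higher and 23.9% lower. Changes of at least 1.5-fold were called for 7 members, or 23.3% of those tested, against 18.3% of all tested genes. The 4 rises of that size were in SLC7A8, SLC6A15, SLC6A17 and SLC38A5, and the 3 falls in SLC7A7, SLC7A2 and SLC1A1. SLC7A7 entered the test mainly through the control libraries, and its call was lost when any of 4 libraries was left out, as given with its values. The median log2 fold change of the tested members was 0.031 beside 0.00033 over all tested genes, and the median absolute change 0.39 beside 0.24. Tested members were also better counted, with a median of 44.7 CPM against 22.1 CPM over all tested genes.

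**Figure D1:**
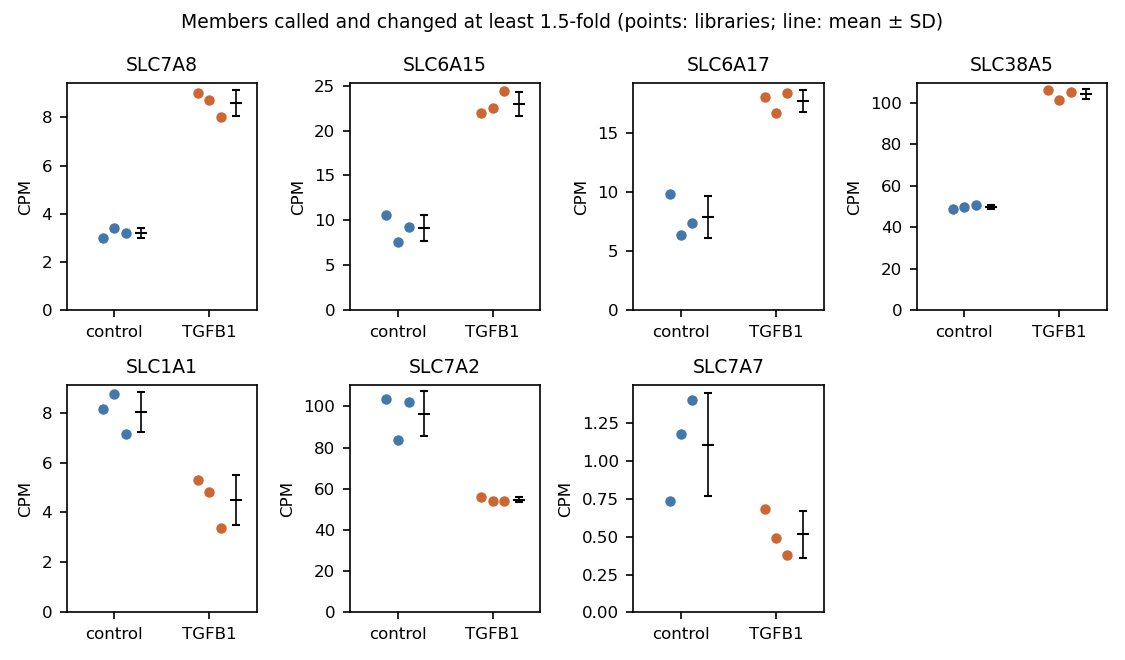
CPM per library (each vertical axis starts at 0) of the 7 transporter genes called and changed at least 1.5-fold, with points for the 3 libraries of each group and the mean ± SD beside them. SLC7A8, SLC6A15, SLC6A17 and SLC38A5 lie higher in all 3 TGFB1 libraries, SLC1A1, SLC7A2 and SLC7A7 lower, and SLC7A7 is at 1.402 CPM or less throughout.

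Stretches upstream of the gene start are shown for 3 of the 4 genes that rose most, and for 5 of the 6 tested members that hold an AP-1 match there (SLC6A14 is the other), because AP-1 factors act with SMAD proteins at many TGF-β targets. Sequences come from RefSeq (GRCh38.p14), run 5′ to 3′ on the gene's strand and end before the annotated start. Capitals mark a match to TGANTCA, a loose form of the AP-1 site in which N is any base. In SLC7A8 that base is T, whereas in the other AP-1 matches printed it is C or G. All AP-1 counts and shares below are for this loose form. SLC38A5 (chrX:48470261-48470340, minus strand), SLC6A17 (chr1:110150413-110150493, plus strand) and SLC7A8 (chr14:23155408-23155494, minus strand) were called higher, SLC43A2 (chr17:1605035-1605108, minus strand) lower, and SLC3A2 (chr11:62881622-62881698, plus strand) and SLC38A1 (chr12:46266527-46266613, minus strand) did not pass.
SLC38A5, no match: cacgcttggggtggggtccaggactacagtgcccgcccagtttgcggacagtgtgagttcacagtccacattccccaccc
SLC6A17: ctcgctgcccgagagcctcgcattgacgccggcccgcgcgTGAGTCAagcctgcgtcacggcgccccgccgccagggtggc
SLC7A8: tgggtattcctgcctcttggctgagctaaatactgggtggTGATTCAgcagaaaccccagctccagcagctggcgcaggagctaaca
SLC43A2: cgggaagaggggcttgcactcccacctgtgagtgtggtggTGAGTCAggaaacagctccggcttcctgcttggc
SLC3A2: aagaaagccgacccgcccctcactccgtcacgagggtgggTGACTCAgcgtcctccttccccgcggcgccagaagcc
SLC38A1: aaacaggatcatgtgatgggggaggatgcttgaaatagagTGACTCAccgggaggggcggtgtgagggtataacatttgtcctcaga

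The promoter table, with 250 bases before and 50 bases after each start, held 44 of the 58 members, and SLC6A15 and SLC7A2 were not among them. An AP-1 match on either strand was found in 6 of 26 tested members (23.1%), in 4.70% of the 9624 promoters in the table that belong to tested genes and in 7.76% of all 27305 promoters. The amino acid response core TGATGNAA, the core of the element bound by ATF4 when amino acids run short, was found in 4 of the 26 (15.4%) and in 1.6% of promoters of tested genes. Those 4 were SLC1A3, which was called lower, and SLC38A1, SLC3A2 and SLC7A1, which did not pass. The SLC1A3 match lies at −220 from the start (chr5:36596338-36596415, plus strand), with capitals marking the core.
SLC1A3: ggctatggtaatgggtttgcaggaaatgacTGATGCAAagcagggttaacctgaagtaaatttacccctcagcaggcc
The antioxidant response core TGACNNNGC was found in 5 of the 26 (19.2%), against 15.2% of promoters of tested genes. In SLC3A2 it overlaps the AP-1 match printed above. AP-1 matches were thus spread over members that rose, fell and did not pass. Among the 26, matches to the amino acid and antioxidant response cores lay only in members that were called lower or did not pass. Most of the 26 were lower or did not pass in any case, and a relation of motif to direction was not tested. A match is a description of letters, not of binding.

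SLC3A2 encodes the CD98 heavy chain, the escort of most plasma membrane light chains. Its level was 509, 548 and 522 CPM in control libraries 1, 2 and 3 and 539, 511 and 553 CPM in TGFB1 libraries 1, 2 and 3. The groups overlapped, and the log2 fold change was 0.02 ± 0.05 with a 95% interval of −0.07 to 0.12 (edgeR adjusted p = 0.728). The other heavy chain, SLC3A1 (rBAT, which carries cystine with SLC7A9 in the kidney), was near the floor with 11 control and 20 TGFB1 counts in all. In GENCODE 29 AC013717.1 on the same strand shares 26.9% of the SLC3A1 exon length, and PREPL on the opposite strand 28.9%. This leaves the SLC3A1 level uncertain.

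SLC7A5 (LAT1), which imports leucine and other large neutral amino acids in exchange for glutamine, was the most counted member. Control libraries held 1361, 1421 and 1421 CPM and TGFB1 libraries 1445, 1396 and 1359 CPM. The groups overlapped fully, and the log2 fold change of −0.001 had a 95% interval of −0.09 to 0.09 (edgeR adjusted p = 0.988). The sign of this value depended on the scaling, since it was 0.06 with scaling by library size alone. SLC7A5 made up 33.2% to 34.97% of all member counts in control libraries and 32.7% to 33.4% in TGFB1 libraries. Its relative by symbol, SLC7A5P1, had 5 to 12 counts per library, and reads that align to both would be missing from either gene.

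The less abundant light chains moved apart. SLC7A8 (LAT2), which exchanges a broader range of neutral amino acids than LAT1, was at 3.01, 3.40 and 3.21 CPM in control and 9.04, 8.74 and 8 CPM in TGFB1 libraries. Every TGFB1 library lay well above every control library, and the gene rose 2.68-fold (log2 1.42 ± 0.15, edgeR adjusted p = 6.06e-09). SLC7A6, an exchanger of cationic for neutral amino acids, was at 50.7, 45.8 and 50.4 CPM in control and 42.5, 42.1 and 35.9 CPM in TGFB1 libraries. The groups did not overlap, and it fell 1.22-fold (edgeR adjusted p = 0.00176). Exons of SLC7A6 share 53.0% of their length with SLC7A6OS on the opposite strand in GENCODE 29, and no source used here says if strand was used in counting, which leaves the SLC7A6 level uncertain. SLC7A7, the relative of SLC7A6 whose loss causes lysinuric protein intolerance, was at 0.734, 1.18 and 1.402 CPM in control and 0.680, 0.489 and 0.377 CPM in TGFB1 libraries. Those are 48 and 23 counts, and the gene fell 2.13-fold (edgeR adjusted p = 0.0213). Only 1 TGFB1 library reached the count filter for SLC7A7, against 3 control libraries. It no longer passed when control 2 (edgeR adjusted p = 0.0558) or control 3 (0.127) was left out, nor when TGFB1 2 (0.0623) or TGFB1 3 (0.0778) was, and its adjusted p ranged from 0.0110 to 0.127 over all alternatives run other than the test against 1.5-fold.

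Ratios of CPM within a library, which are not corrected for gene length, were read only for their difference between groups. SLC7A8 CPM was 0.221% to 0.239% of SLC7A5 CPM in control libraries and 0.589% to 0.626% with TGF-β1, and the ratio of SLC7A8 to SLC7A6 CPM went from 0.0594 to 0.0742 up to 0.208 to 0.223. Per kb of exon, the summed level of SLC7A5, SLC7A6, SLC7A7, SLC7A8 and SLC7A10 was 1.54 to 1.62 times that of SLC3A2 in control and 1.46 to 1.63 times in TGFB1 libraries. These ranges overlapped, whereas the ratio of SLC7A8 to SLC7A5 was higher in every TGFB1 library than in any control library. SLC7A10 (Asc-1, a carrier of small neutral and D-amino acids) had 2 control and 6 TGFB1 counts, SLC7A9, the partner of rBAT, had 1 and 1, and SLC7A13 had none.

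Carriers of cationic amino acids were represented by SLC7A1 (CAT1) and SLC7A2 (CAT2), which bring arginine and lysine into the cell. SLC7A2 was at 104, 83.8 and 102 CPM in control and 56.1, 54.1 and 54.1 CPM in TGFB1 libraries. No control library came near the TGFB1 range, and SLC7A2 fell 1.76-fold (log2 −0.82 ± 0.07, edgeR adjusted p = 7.69e-11). SLC7A1 was at 189, 169 and 171 CPM in control and 190, 195 and 181 CPM in TGFB1 libraries. These ranges overlapped, and SLC7A1 did not pass at a log2 fold change of 0.10, 95% interval −0.009 to 0.20 (edgeR adjusted p = 0.127). It passed without control 1 (edgeR adjusted p = 0.0290), without TGFB1 3 (0.0449) and with scaling by library size alone (0.0165), in a range up to 0.437 over the alternatives other than the test against 1.5-fold. CAT3 (SLC7A3) and SLC7A4 had 0 counts and SLC7A14 had 1.

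Both ASC exchangers of the SLC1 family rose. SLC1A5 (ASCT2), a sodium-dependent exchanger that takes up glutamine, was at 156, 172 and 167 CPM in control and 224, 212 and 225 CPM in TGFB1 libraries. It rose 1.34-fold with no overlap between groups (edgeR adjusted p = 5.78e-08). SLC1A4 (ASCT1), which carries serine, alanine and cysteine, was at 30.8, 29.98 and 31.2 CPM in control and 37.3, 39.5 and 39.6 CPM in TGFB1 libraries, a rise of 1.26-fold (edgeR adjusted p = 0.000164). An antisense gene covers 23.4% of the SLC1A5 exon length in GENCODE 29.

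Of the 5 acidic amino acid transporters of the same family, which carry glutamate and aspartate against steep gradients, 2 were tested and both were called lower. SLC1A1 (EAAT3) was at 8.15, 8.74 and 7.15 CPM in control and 5.30, 4.83 and 3.40 CPM in TGFB1 libraries. All TGFB1 values were below the lowest control value, and SLC1A1 fell 1.76-fold (edgeR adjusted p = 8.87e-05). SLC1A3 (EAAT1) fell 1.38-fold, from 10.6 ± 1.59 to 7.64 ± 0.177 CPM (edgeR adjusted p = 0.00337). Too low to test were SLC1A2, with 1 control and 7 TGFB1 counts, and SLC1A7, with 6 and 11 counts, while SLC1A6 had none. By library SLC1A2 had 0, 0 and 1 counts in control and 3, 2 and 2 in TGFB1, so its groups did not overlap. With libraries pooled, the counting interval of its ratio of TGFB1 to control was 0.872 to 306, which includes no change. Without a count filter SLC1A2 did not pass (edgeR adjusted p = 0.24).

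**Figure D2:**
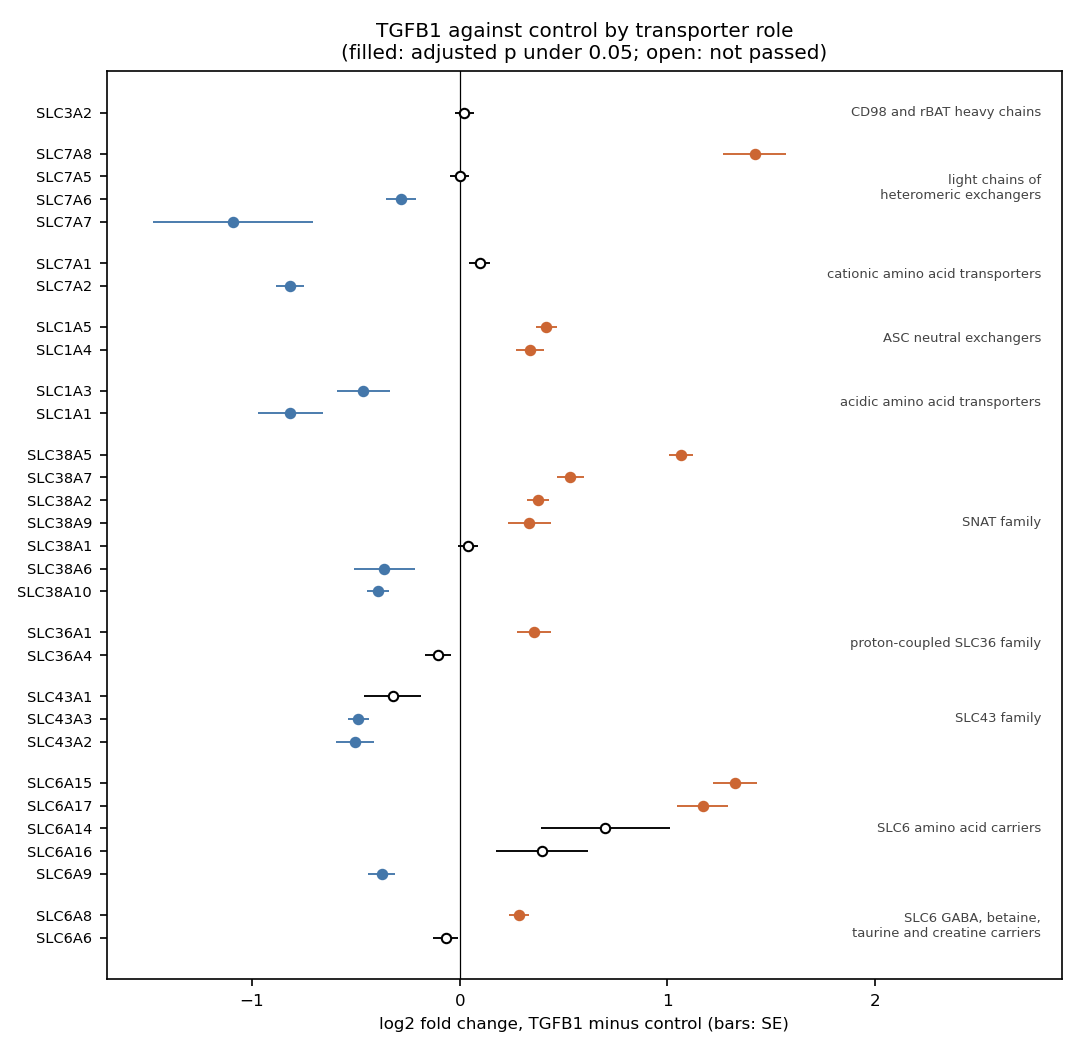
Log2 fold change, TGFB1 minus control, of the 30 tested transporter genes, grouped by role, with bars of 1 SE. Filled points passed at an adjusted p under 0.05 (orange higher, blue lower) and open points did not, and SLC7A8 and SLC7A7 are farthest to the right and left.

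In the SLC38 family of sodium-coupled neutral amino acid transporters, 4 of 7 tested genes rose, 2 fell and 1 did not pass, with a median log2 fold change of 0.34. SLC38A5 (SNAT5), a system N carrier that moves glutamine, histidine and serine in exchange for protons, was at 48.8, 49.7 and 50.6 CPM in control and 106, 101 and 105 CPM in TGFB1 libraries. The spread within each group was small beside the difference of 2.10-fold (log2 1.07 ± 0.06, edgeR adjusted p = 2.53e-15). SLC38A2 (SNAT2), the system A carrier known to be induced when amino acids run short, was at 215, 184 and 192 CPM in control and 251, 260.1 and 256 CPM in TGFB1 libraries, a rise of 1.30-fold (edgeR adjusted p = 6.80e-07). SLC38A1 (SNAT1), a system A carrier as well and the third most counted member, was at 497, 451 and 460 CPM in control and 488, 499 and 460.1 CPM in TGFB1 libraries. The ranges overlapped, and SLC38A1 did not pass (log2 0.04, 95% interval −0.06 to 0.14, edgeR adjusted p = 0.534). The ratio of SLC38A5 to SLC38A1 CPM went from 0.0983 to 0.110 in control to 0.204 to 0.229 in TGFB1 libraries.

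Members of SLC38 that act on the lysosome rose as well. SLC38A7 (SNAT7), which exports glutamine and asparagine from the lysosome, was at 35.7, 39.1 and 35.1 CPM in control and 52.9, 53.9 and 52.2 CPM in TGFB1 libraries. That is a rise of 1.45-fold with no overlap (edgeR adjusted p = 9.99e-08). SLC38A9, the lysosomal arginine sensor upstream of mTORC1, averaged 10.7 ± 0.545 CPM in control and 13.5 ± 0.334 CPM in TGFB1 libraries, a rise of 1.26-fold (edgeR adjusted p = 0.00912). SLC36A1 (PAT1), a proton-coupled exporter of small amino acids found on lysosomes, was at 21.4, 18.5 and 20.3 CPM in control and 24.5, 27.1 and 25.4 CPM in TGFB1 libraries and rose 1.28-fold (edgeR adjusted p = 0.000754). SLC36A4, a carrier of proline and tryptophan, was at 62.7, 56.6 and 57.3 CPM in control and 54.2, 53.7 and 56.2 CPM in TGFB1 libraries. It did not pass (edgeR adjusted p = 0.173), although its groups did not overlap.

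The falls in SLC38 were in genes less well described. SLC38A10 was at 149.7, 156 and 159 CPM in control and 125, 118 and 111 CPM in TGFB1 libraries and fell 1.31-fold (edgeR adjusted p = 3.88e-07). SLC38A6 fell from 6.32 ± 0.300 to 4.91 ± 0.352 CPM at the edge of the threshold (edgeR adjusted p = 0.0436). That call was lost when any library other than TGFB1 2 was left out (edgeR adjusted p = 0.0566 to 0.144), and its adjusted p ranged from 0.0428 to 0.144 over the alternatives other than the test against 1.5-fold. The replicate block also ended the call (edgeR adjusted p = 0.0579). SLC38A4, SLC38A3 and SLC38A8 had 17, 4 and 2 counts over all libraries, SLC38A11 had none, and of the SLC36 family SLC36A3 had 2 and SLC36A2 none. For SLC38A4 there were 1 control and 16 TGFB1 counts, so the TGFB1 level was 15.5 times the control level (95% counting interval 2.41 to 651).

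SLC43 genes fell or did not pass. SLC43A2 (LAT4), a uniporter of large neutral amino acids, fell 1.42-fold from 20.4 ± 0.849 to 14.4 ± 1.29 CPM (edgeR adjusted p = 4.75e-05). SLC43A1 (LAT3), its close relative, averaged 8.70 ± 0.769 CPM in control and 6.92 ± 1.12 CPM in TGFB1 libraries, short of the threshold (edgeR adjusted p = 0.0543). It passed without TGFB1 1 (edgeR adjusted p = 0.0358) and with the replicate block (0.0427), and its adjusted p reached 0.235 without TGFB1 3. SLC43A3, known as a carrier of purine nucleobases rather than amino acids, was at 122, 125 and 128 CPM in control and 91.3, 87.2 and 89.1 CPM in TGFB1 libraries and fell 1.402-fold (edgeR adjusted p = 6.31e-09).

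Among the SLC6 genes that carry amino acids, SLC6A15 and SLC6A17 rose together. SLC6A15 (B0AT2), a sodium-dependent carrier of proline and branched-chain amino acids best known from neurons, was at 10.6, 7.63 and 9.28 CPM in control and 21.95, 22.5 and 24.5 CPM in TGFB1 libraries. The lowest TGFB1 value was above the highest control value, and SLC6A15 rose 2.51-fold (log2 1.32 ± 0.11, edgeR adjusted p = 2.02e-11). Its paralog SLC6A17 (NTT4), a neutral amino acid carrier of synaptic vesicles, was at 9.84, 6.38 and 7.41 CPM in control and 18.0, 16.7 and 18.4 CPM in TGFB1 libraries. It rose 2.25-fold (log2 1.17 ± 0.12, edgeR adjusted p = 4.08e-09), with no overlap between the groups. SLC6A9 (GlyT1), the glycine carrier, was at 53.6, 50.2 and 53.2 CPM in control and 41.0, 41.3 and 38.6 CPM in TGFB1 libraries and fell 1.30-fold (edgeR adjusted p = 1.90e-05). SLC6A14, a broad carrier of neutral and cationic amino acids often raised in colorectal tumours, averaged 0.883 ± 0.166 CPM in control and 1.44 ± 0.149 CPM in TGFB1 libraries (38 and 64 counts), short of the threshold (edgeR adjusted p = 0.0640). The orphan carrier SLC6A16 averaged 2.12 ± 0.220 CPM in control and 2.77 ± 0.395 CPM in TGFB1 libraries, also short of it (edgeR adjusted p = 0.145). SLC6A19, the main neutral amino acid carrier of the intestinal brush border, had 11 control and 9 TGFB1 counts, SLC6A7, a proline carrier, had 1 and 16 (15.5 times the control level, 95% counting interval 2.41 to 651), SLC6A18 had 2 in all, and SLC6A5 and SLC6A20 had none.

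SLC6 members with other substrates were among the most counted genes of the set. SLC6A8, the creatine carrier, was at 228, 226 and 218 CPM in control and 280.4, 271 and 268 CPM in TGFB1 libraries and rose 1.22-fold (edgeR adjusted p = 9.13e-06). SLC6A6, the taurine carrier, was at 172, 149 and 167 CPM in control and 160.4, 166 and 139 CPM in TGFB1 libraries. Its groups overlapped and it did not pass (log2 −0.07, 95% interval −0.19 to 0.06, edgeR adjusted p = 0.393). Of the GABA and betaine carriers, SLC6A13 had 6 control counts (0, 5 and 1 by library) and 0 TGFB1 counts, so its groups overlapped. With libraries pooled, its ratio of TGFB1 to control was at most 0.824 by its 95% counting interval. SLC6A12 had 1 control count and 8 TGFB1 counts (4, 4 and 0 by library), and its groups overlapped too. Pooled, that is 7.76 times the control level (95% counting interval 1.04 to 344). Without a count filter neither SLC6A13 nor SLC6A12 passed (edgeR adjusted p = 0.0817 and 0.178). SLC6A11 had 0 and 1 counts. Of the monoamine carriers, the dopamine transporter SLC6A3 had 7 control and 34 TGFB1 counts, 4.71 times the control level (95% counting interval 2.06 to 12.6), while the serotonin transporter SLC6A4 had 7 and 11 and the noradrenaline transporter SLC6A2 had 0 and 1. None of these low genes entered the test, and the intervals cover counting error only. A count of 0 over the 3 libraries of a group allows up to 0.0698 CPM in control and 0.0677 CPM in TGFB1 libraries.

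The order of levels between genes was taken per kb of exon (the union of exons in GENCODE 29). In control cells SLC7A5 was highest at 305 ± 7.55 CPM per kb, followed by SLC3A2 at 198 ± 7.59 and, after a wide gap, SLC6A8 at 57.5 ± 1.47, SLC38A1 at 50.3 ± 2.63 and SLC1A5 at 49.5 ± 2.55. The last 2 did not differ beyond their spread. SLC43A3 and SLC38A2 came next at 43.2 ± 1.07 and 39.3 ± 3.19 CPM per kb. With TGF-β1 the top 3 were the same, SLC7A5 at 305 ± 9.41, SLC3A2 at 201 ± 8.20 and SLC6A8 at 70.05 ± 1.69 CPM per kb, and SLC1A5 at 66.1 ± 2.30 stood above SLC38A1 at 51.7 ± 2.14. SLC38A5 moved from rank 11 to rank 7 and SLC7A2 from rank 12 to rank 16 of the 58. With the longest transcript as length, SLC1A5 and SLC6A8 changed places at rank 3 and rank 4 in TGFB1 cells.

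**Figure D3:**
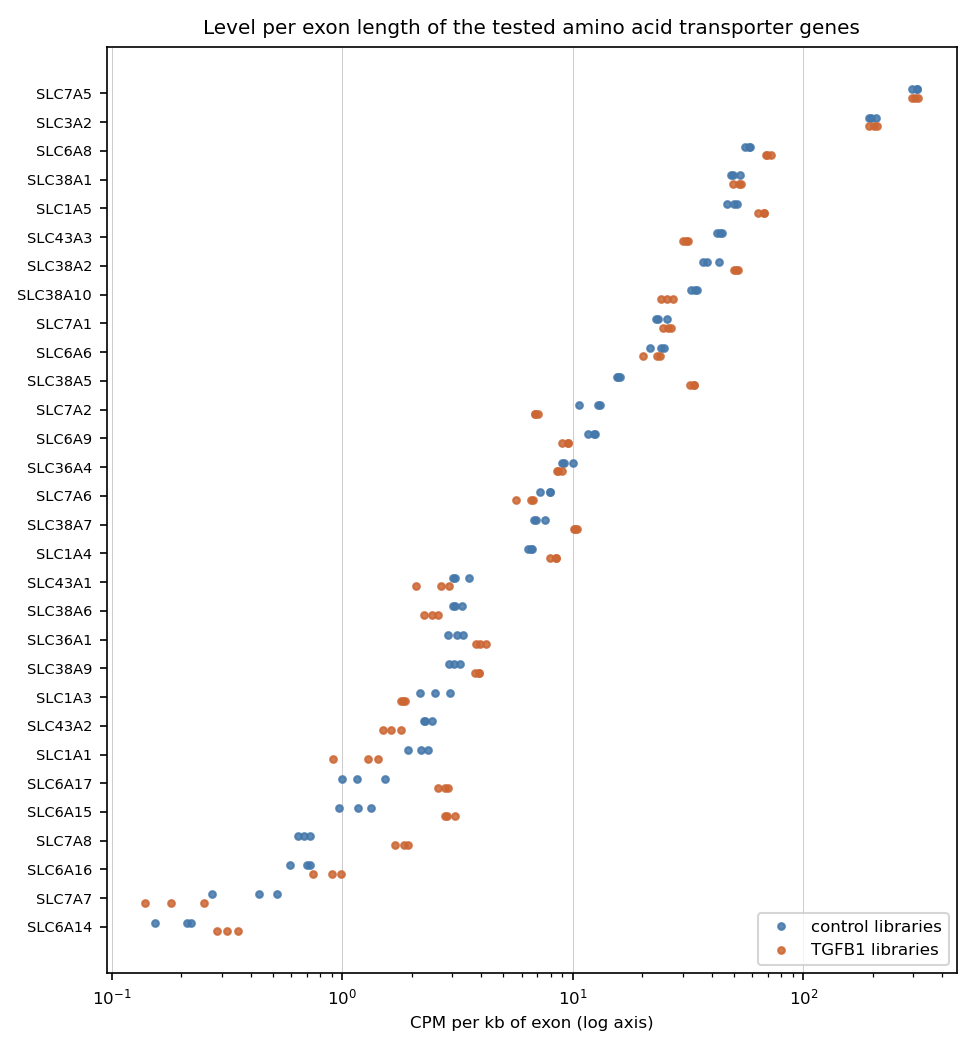
CPM per kb of exon (log axis) of the 30 tested transporter genes, ordered by their control level, with 1 point for each of the 3 control and 3 TGFB1 libraries. SLC7A5 and SLC3A2 stand apart at the top with overlapping groups, while SLC38A5 and SLC7A2 in the middle and SLC6A15, SLC6A17 and SLC7A8 near the bottom show separated groups.

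Summed over all 58 genes, the level was 4099, 4063 and 4093 CPM in control and 4322, 4235 and 4154 CPM in TGFB1 libraries. The lowest TGFB1 sum was above the highest control sum, by less than the spread among TGFB1 libraries. Carriers of creatine, taurine and nucleobases are part of this sum. The 15 listed amino acid carriers of other families went the other way. Their sum was 1131 to 1157 CPM in control and 823 to 853 CPM in TGFB1 libraries. The sums were not tested.

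Lists of related genes are read against the same shares over all tested genes, 47.3% called, 23.4% higher and 23.9% lower. Of 12 tested amino acid carriers of other families 1 was called higher and 4 lower, and 7 did not pass (median −0.03). SLC25A29, a mitochondrial carrier of arginine and lysine, fell 5.18-fold, from 97.3 ± 2.19 to 18.7 ± 2.53 CPM (edgeR adjusted p = 1.59e-20). MFSD12, which brings cysteine into lysosomes and melanosomes, fell 1.44-fold from 698 ± 13.4 to 486 ± 15.3 CPM, and SLC25A13, a mitochondrial aspartate and glutamate carrier, 1.17-fold. PQLC2, a lysosomal exporter of cationic amino acids, rose 1.18-fold.

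Of 9 tested genes for proteins that bind or regulate carriers 5 were called lower and 2 higher, and 2 did not pass (median −0.30). SGK1, a kinase that raises the surface level of many transporters, fell 1.75-fold from 148 ± 3.36 to 84.5 ± 3.50 CPM (edgeR adjusted p = 1.71e-13), and ARRDC3, an adaptor for ubiquitin ligases, rose 1.62-fold. TMEM27 (collectrin), the partner of SLC6A19 in the kidney, had 115 control and 11 TGFB1 counts (edgeR adjusted p = 3.54e-07) and entered the test through the control libraries alone, since 0 of 3 TGFB1 libraries reached the count filter. AJUBA, a scaffold protein known to bind SLC1A2, fell 1.32-fold.

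Of 12 tested genes of glutamine and glutamate metabolism 3 were called higher and 4 lower, and 5 did not pass (median 0.09). GLUL, glutamine synthetase, fell 2.96-fold from 126 ± 2.31 to 42.5 ± 3.11 CPM (edgeR adjusted p = 1.45e-18). GOT1, the cytosolic aspartate aminotransferase, fell 1.62-fold and GFPT1, which spends glutamine on hexosamines, 1.59-fold.

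Genes listed for the ATF4 branch of the amino acid response gave 6 called higher of 17 tested, 3 called lower and 8 that did not pass (median 0.12). STC2 and CEBPB rose 1.72-fold and 1.29-fold, while CTH, which makes cysteine from cystathionine, fell 5.21-fold (46.3 ± 4.55 CPM in control, 8.85 ± 1.08 CPM with TGF-β1, edgeR adjusted p = 3.50e-18). The kinase EIF2AK3 (PERK) fell 1.68-fold, while EIF2AK4 (GCN2), also a kinase of this list, did not pass (log2 −0.05, edgeR adjusted p = 0.507). In the list of lysosomal amino acid sensing and mTORC1, 4 of 20 tested were higher, 8 lower and 8 did not pass (median −0.05). FNIP2 and TFEB rose 1.93-fold and 1.64-fold, SESN3 fell 2.85-fold and DEPDC5 1.43-fold. Of 14 tested genes of serine, glycine, proline and branched-chain metabolism 2 were higher, 6 lower and 6 did not pass (median −0.09), PYCRL rising 1.44-fold and PHGDH, BCKDHB and BCAT2 falling 1.27-fold, 1.45-fold and 1.17-fold.

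**Figure D4:**
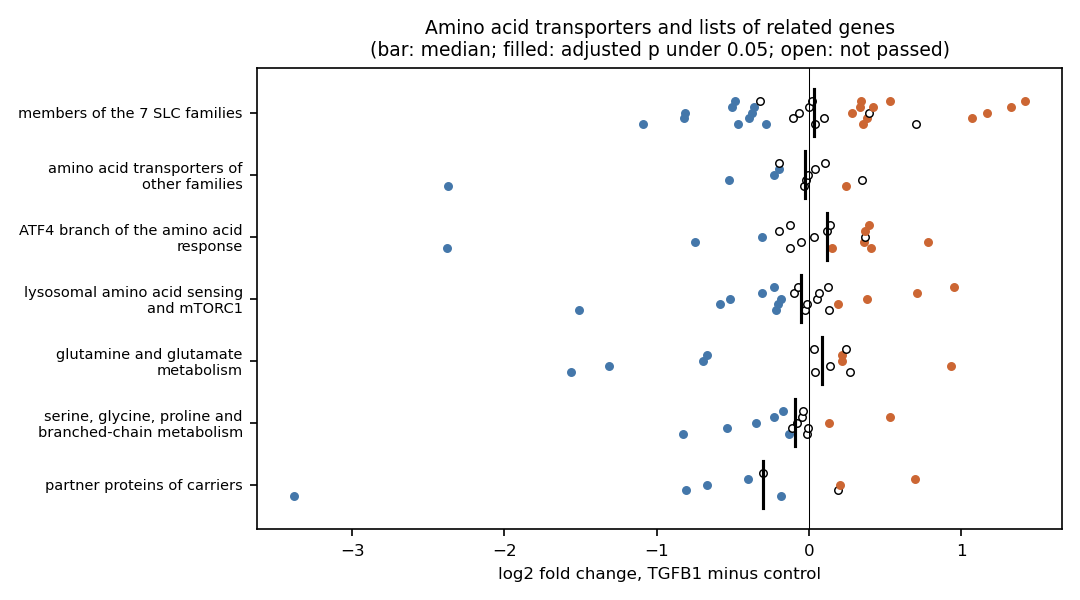
Log2 fold change, TGFB1 minus control, of every tested gene in the 7 transporter families and in 6 lists of related genes, with a bar at each median (filled points passed at an adjusted p under 0.05, open points did not). Medians lie between −0.30 for the carrier partners and 0.12 for the ATF4 branch, and the transporters have both called rises and called falls.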

How the data were processed

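RNA from cells labelled SW480 was sequenced as 3 control and 3 TGFB1 libraries. For each library the authors deposited unnormalized counts of reads, by gene symbol. The submitters' processing notes list HTSeq, TopHat and TopHat2 2.0.11 as tools, and GRCh37 and hg19 as builds, without roles. Annotation, strand setting and filters: not given in the sources used here. Reads with no feature (5.44% to 5.99%), ambiguous reads (9.01% to 9.43%) and reads not aligned uniquely (12.0% to 12.5%) are separate lines and entered neither library sizes nor tests.

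Groups and replicate numbers came from the sample titles. Replicates were not copies of each other: their counts differed beyond sampling noise (chi-square over degrees of freedom 1.76 to 4.34), and each was counted as 1 replicate. Genes passed edgeR's filterByExpr (minimum count 10, minimum total 15), were scaled by TMM (factors 0.975 to 1.02) and were fitted with robust glmQLFit and glmQLFTest over all 14897 tested genes, with group as the only term (edgeR 4.0.16, R 4.3.3). SE is the fold change over the root of its F statistic. A count of 0 was bounded by 3 counts, and low ratios have exact 95% binomial intervals. Intervals and floors cover counting error only. Alternatives were DESeq2 1.42.0, limma-voom 3.58.1, other scalings and filters, the replicate block, a test against 1.5-fold and leaving out each library.

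Members, roles, related gene lists, marker lists and motifs were chosen with earlier results of these data known. Single values of some genes are not reported here. All tested members are named, those called with at least 1.5-fold change or with a mean of at least 20 CPM by library. Of each related list up to 4 genes with the lowest p are named, with EIF2AK4 added outside this rule. Exon lengths and overlaps are from GENCODE 29 (GRCh38) and were matched by symbol for all 58 members. Promoters are RefSeq's (GRCh38.p14), another build than the counts, and were used for sequence only.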

Additional observations from a re-analysis of the deposited data

How the results depend on the processing

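Of the 30 tested members 25 stayed on the same side of the threshold in all 14 alternatives other than the test against 1.5-fold. The 5 that did not were SLC7A7, SLC38A6, SLC43A1, SLC7A1 and SLC6A14, the last of which passed when only library size was used for scaling (edgeR adjusted p = 0.0452, range 0.0452 to 0.223). Of the members that did not pass, SLC3A2, SLC6A6 and SLC7A5 also changed sign near 0. In the test against 1.5-fold 1646 genes passed, with 4 members higher and 1 member, SLC7A2, lower, which follows from its stricter null. Leaving out 1 library gave 6115 to 6816 called genes, 11 to 13 members higher and 8 to 10 lower. DESeq2 called 6041 genes, with 11 members higher and 8 lower, SLC7A7 and SLC38A6 being lost (DESeq2 adjusted p = 0.0876 and 0.131). Scaling by library size alone moved the median of all genes to 0.057 and the share of calls that were higher from 49.5% to 59.4%, with 13 members higher and 9 lower. Without a count filter SLC38A4, SLC6A3 and SLC6A7 were also called higher (edgeR adjusted p = 0.00689, 0.00186 and 0.00717), each on under 10 control counts. With the replicate number as a block 6775 genes passed, with 11 members higher and 10 lower, SLC38A6 losing its call (edgeR adjusted p = 0.0579) and SLC43A1 gaining one (0.0427). Same-numbered libraries did not deviate together (correlations 0.0259, −0.134 and −0.0481), so the numbers were not read as pairs. Members under about 1 CPM are limited by depth, since 1 count is worth 0.0611 to 0.0755 CPM.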
